A study of Mus musculus with 12 samples.

Results

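Genes of the NRF2, glutathione and antioxidant systems were followed in mouse embryonic fibroblasts (matrix-forming cells cultured from embryos) that were wild type or labelled MLL1 knockout. A list of 38 genes was used, and the members were found by gene symbol among the probe sets of an Affymetrix array, with the probe set of highest mean taken for each gene. Of the 38 genes, 37 had such a probe set and 36 were bright enough to be tested, out of 13956 tested genes in all. Prdx6 was not analysed here. Gpx3, a secreted glutathione peroxidase, was dim, with intensities between 95.3 and 139.8 in the 12 arrays, and was not tested. Cbr3 and Gstt1 passed the filter on dim genes through their wild-type arrays, and their mean intensity was under its limit of 175 in both knockout groups for Cbr3 and in knockout at 30 h for Gstt1.

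The 4 groups were wild-type cells 18 h after a serum shock, wild-type cells at 30 h, MLL1 knockout cells at 18 h and MLL1 knockout cells at 30 h, with 3 arrays in each. MLL1 is a histone methyltransferase encoded by Kmt2a. All cells grew in medium with fetal bovine and newborn calf serum and were shocked with 50% horse serum for 2 h, a treatment that brings the circadian clocks of a culture into step. The labels give no strain, no age of the embryos, no separate lines or clones and no description of the disrupted allele. Nor do they say whether replicates came from separate cultures, and the p-values then cover only array-to-array spread, possibly technical.

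NRF2, encoded by Nfe2l2, is a transcription factor that raises detoxifying and antioxidant enzymes. In unstressed cells KEAP1 binds NRF2 and directs its degradation, and electrophiles or oxidants modify KEAP1 so that NRF2 accumulates, pairs with small MAF proteins and binds the antioxidant response element. Its targets make glutathione, attach it to electrophiles, reduce peroxides and supply the NADPH on which this chemistry depends. Much of the control of NRF2 acts on the protein, which these arrays do not measure.

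The promoters were searched for the core of the antioxidant response element, TGACNNNGC, on both strands (GCNNNGTCA on the other strand), because it is the sequence through which NRF2 acts. The windows held 250 bases before and 50 bases after each RefSeq transcription start in assembly GRCm38.p6. Of the 38 genes 32 had a window, and 10 of these held a match (31.2%), against 14.0% of 27025 genes. Among the 18 genes with a window that were lower in knockout at both times, the share with a match was no larger than among the 32. Of these 18 genes, 5 held a match. These are printed here with the match in capitals and up to 30 bases on each side, 5′ to 3′ on the strand of the gene, followed by Txnrd1 and Gstm5, which were higher in knockout at 18 h.
Nfe2l2, chr2:75704865-75704913, minus strand: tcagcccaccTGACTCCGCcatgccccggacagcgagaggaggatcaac
Srxn1, chr2:152105522-152105573, plus strand: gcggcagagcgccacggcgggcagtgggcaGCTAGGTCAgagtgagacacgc
Gclm, chr3:122245393-122245461, plus strand: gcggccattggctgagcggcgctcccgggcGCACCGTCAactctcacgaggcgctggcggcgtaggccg
Mgst1, chr6:138140441-138140509, plus strand: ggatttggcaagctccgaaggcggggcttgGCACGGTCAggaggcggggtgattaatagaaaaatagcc
Me1, chr9:86695882-86695950, minus strand: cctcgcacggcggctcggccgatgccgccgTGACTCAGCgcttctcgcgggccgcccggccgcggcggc
Txnrd1, chr10:82859084-82859152, plus strand: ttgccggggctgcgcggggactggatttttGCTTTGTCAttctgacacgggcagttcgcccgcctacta
Gstm5, chr3:107895782-107895850, plus strand: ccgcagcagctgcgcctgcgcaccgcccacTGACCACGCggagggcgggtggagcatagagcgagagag
In Nfe2l2, Me1 and Gstm5 the match read along the strand of the gene, and in Srxn1, Gclm, Mgst1 and Txnrd1 it lay on the opposite strand. Prdx1, Pgd and Sod1 also held a match. A match is a description of these windows and not a measured binding site.

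The median intensity of the arrays lay between 273.3 and 311.8, and arrays within a group correlated at 0.984 to 0.996 over the tested genes. Knockout 18 h replicate 1 stood apart: its score on the second principal component was -9.34, against -25.2 and -24.9 for replicates 2 and 3 and 20 to 24.6 for the arrays of knockout at 30 h. The targeted gene Kmt2a had a mean intensity of 2396 in wild type against 2085 in knockout at 18 h (adjusted p = 0.108), and 2118 against 1429 at 30 h (adjusted p = 0.000111). The sources used here do not place its probes relative to the disrupted part, so this does not check the labels. Of 10 fibroblast markers 9 were tested, and Vim, Col1a1 and Col1a2 were bright in every group, whereas Pdgfra went from 3811 in wild type to 395.4 in knockout at 18 h and Dcn from 422.6 to 5766. At 18 h 3 of the 9 were higher in knockout and 4 lower, and at 30 h 4 were higher and 5 lower, and the summed level of the whole list ran from 39966 to 42861 in the wild-type arrays and from 38623 to 41568 in the knockout arrays. The summed level of 9 macrophage and blood markers was 2183 to 2562 in wild type, 2704 to 4340 in knockout at 18 h and 2177 to 2341 in knockout at 30 h, with Ptprc under 175 in every group mean and Cd68 the brightest. No marker of any list was at 0. The sum of 5 endothelial markers, none of them tested, was 551.9 to 691.7 in wild type and 661.8 to 881.8 in knockout. For 5 epithelial markers it was 2903 to 3995 and 3496 to 4101, and for 5 liver markers 907.6 to 1042 and 936.4 to 1239. The part of the cell makeup in the results on antioxidant genes was not tested. In such bulk RNA, fewer cells of a type and less RNA per cell cannot be told apart.

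Most of the antioxidant genes were lower in knockout than in wild type at both times. At 18 h 25 of the 36 tested genes were lower and 7 higher, where 33.8% of all tested genes were lower and 26.3% higher (limma, adjusted p under 0.05). At 30 h 23 were lower and 4 higher, where 28.6% of all tested genes were lower and 24.3% higher. The median difference of the 36 genes was -0.46 at 18 h and -0.51 at 30 h on the scale of log2(intensity + 16), and that of all tested genes was -0.03 and 0.02. All arrays of a genotype lay above all of the other in 30 of the 36 genes at 18 h, as in 63.1% of all tested genes, and in 27 at 30 h, as in 61.5%. A set of 21 genes was lower at both times, Sod3, Gpx1 and Taldo1 were higher at both, and none was called in opposite directions. Of all 13956 tested genes, 3260 were lower at both times, 2634 were higher at both and 187 were called in opposite directions. By at least 2-fold, 10 genes were lower at each time, where 8.07% of all tested genes were lower at 18 h and 6.21% at 30 h. Higher by that much were Sod3 at 18 h, where 6.36% of all tested genes were, and 0 of the 36 at 30 h, where 4.78% were. Without knockout 18 h replicate 1 the counts at 18 h were also 25 lower and 7 higher, and those at 30 h 25 and 4.

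**Figure D1:**
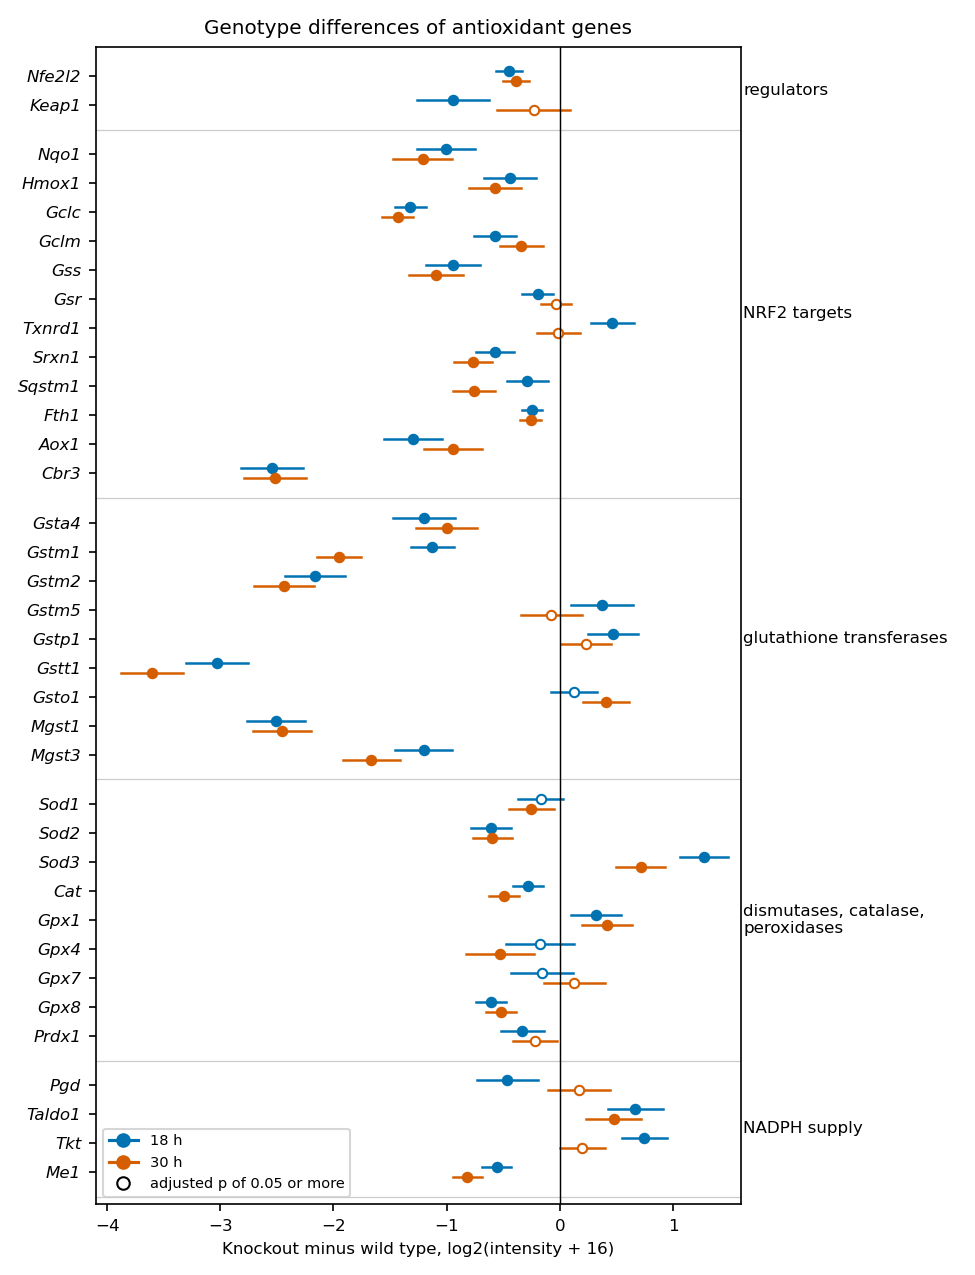
Knockout minus wild type in log2(intensity + 16) for the 36 tested genes, by role, at 18 h (blue) and 30 h (orange). Points are limma estimates from 3 arrays a group, bars are unadjusted 95% confidence intervals, and open points had an adjusted p of 0.05 or more. Transferases hold the lowest values, Gstt1 at -3.03 and -3.61, and Sod3 the highest at 18 h, 1.27.

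Nfe2l2 itself was lower in knockout by a modest amount at both times. Its intensity in wild type was 7846, 7518 and 7253 at 18 h, then 7701, 7338 and 7564 at 30 h. The knockout arrays gave 5857, 5562 and 5160 at 18 h, then 5729, 5826 and 5721 at 30 h. All 6 knockout arrays thus lay below all 6 wild-type arrays, with log2 differences of -0.45 ± 0.055 (SE, adjusted p = 2.03e-06) at 18 h and -0.39 ± 0.055 (adjusted p = 1.39e-05) at 30 h. Keap1, the repressor of NRF2, had 856.7, 848.8 and 862.9 in wild type at 18 h, then 824.2, 849.8 and 877.2 at 30 h. The knockout arrays gave 636.2, 377.9 and 346.5 at 18 h, then 746.3, 718.3 and 701.4 at 30 h. Knockout 18 h replicates 2 and 3 were the lowest arrays, and replicate 1 lay nearer to the 30 h arrays. The difference was -0.94 at 18 h (SE 0.151, adjusted p = 3.96e-05) and -0.23 at 30 h (adjusted p = 0.217). Without knockout 18 h replicate 1 it was -1.21 at 18 h, and at 30 h it stayed at -0.23 but passed the test (adjusted p = 0.00958), as it did in a fit on the 30 h arrays alone (adjusted p = 0.0139).

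Of the 12 NRF2 targets outside the transferases, peroxidases and NADPH enzymes, 11 were lower in knockout at 18 h and 1 was higher, and 10 were lower at 30 h with 0 higher, also at an unadjusted p under 0.05 (limma, 0 genes). Among all tested genes 33.8% were lower and 26.3% higher at 18 h, and 28.6% were lower and 24.3% higher at 30 h. At an unadjusted p under 0.05, 3733 of the 13956 tested genes were higher at 30 h. The largest difference was in Cbr3, a carbonyl reductase that acts on quinones. Its intensity was 684.8, 676.5 and 808.3 in wild type at 18 h and 116.0, 97.4 and 119.2 in knockout. At 30 h it was 661.1, 739.0 and 870.6 in wild type against 142.8, 116.3 and 99.85 in knockout. The knockout values are in the range of dim, untested genes, and the log2 differences were -2.54 ± 0.129 and -2.51 ± 0.129 (SE, adjusted p = 2.93e-11 and 3.8e-11).

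The enzymes that make glutathione were all lower in knockout at both times. Gclc, the catalytic subunit of glutamate-cysteine ligase, the rate-limiting enzyme, had 3596, 3726 and 3441 in wild type against 1391, 1498 and 1394 in knockout at 18 h. The 30 h arrays gave 3465, 3727 and 3538 in wild type against 1343, 1312 and 1294 in knockout. The groups were far apart in relation to their spread, with log2 differences of -1.32 ± 0.065 and -1.43 ± 0.065 (SE, adjusted p = 1.84e-11 and 6.89e-12). Gss, glutathione synthetase, which adds glycine in the last step, had 946.7, 930.7 and 1073 in wild type against 449.5, 493.0 and 573.6 in knockout at 18 h. At 30 h it had 1042, 1121 and 1188 in wild type against 602.6, 498.2 and 451.2 in knockout. No array overlapped at either time, and the differences were -0.94 (adjusted p = 1.5e-06) and -1.09 (adjusted p = 3.35e-07). Gclm, the modifier subunit of the ligase, differed less, by -0.57 at 18 h (2157 ± 276 in wild type against 1437 ± 63.2 in knockout, SD, n = 3 each, adjusted p = 3.06e-05) and -0.34 at 30 h (adjusted p = 0.00408).

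Nqo1, a quinone reductase and a standard readout of NRF2 activity, had 1006, 997.2 and 1043 in wild type against 509.9, 491.2 and 490.2 in knockout at 18 h. The values at 30 h were 1309, 1280 and 1405 in wild type against 710.7, 574.9 and 440.2 in knockout. The genotypes did not overlap, although the knockout arrays at 30 h were spread widely, and the differences were -1.01 and -1.21 (adjusted p = 1.77e-06 and 2.53e-07). Aox1, aldehyde oxidase, had 836.1, 990.1 and 890.6 in wild type against 447.2, 339.9 and 301.6 in knockout at 18 h, and 787.0, 934.2 and 852.6 against 418.4, 439.3 and 452.9 at 30 h. Every knockout array was below every wild-type array, by -1.30 and -0.95 (adjusted p = 6.95e-08 and 4.01e-06).

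Smaller decreases in knockout were seen in other targets. Srxn1, sulfiredoxin, which restores over-oxidised peroxiredoxins, differed by -0.57 and -0.76 at 18 h and 30 h (adjusted p = 9.31e-06 and 4.21e-07). Hmox1, heme oxygenase 1, differed by -0.44 and -0.57 (adjusted p = 0.00209 and 0.000291), and Fth1, the ferritin heavy chain that stores iron, by -0.25 and -0.26 (adjusted p = 6.37e-05 and 5.52e-05). Sqstm1, the p62 autophagy adaptor that also binds KEAP1, differed by -0.29 at 18 h (adjusted p = 0.00829) and -0.76 at 30 h (adjusted p = 1.19e-06), and the call at 18 h ended with wild-type 18 h replicate 3 left out (-0.20, adjusted p = 0.0548) and after array medians were set equal (-0.22, adjusted p = 0.0911).

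Gsr, glutathione reductase, which recycles oxidised glutathione, differed by -0.20 at 18 h (adjusted p = 0.0125) and -0.04 at 30 h (adjusted p = 0.665), and the call at 18 h ended without knockout 18 h replicate 2 (-0.15, adjusted p = 0.0834), under quantile scaling (-0.14, adjusted p = 0.0606), after medians were set equal (-0.13, adjusted p = 0.142) and in a fit on the arrays compared alone (adjusted p = 0.0568). Txnrd1, thioredoxin reductase, was the target that was higher in knockout at 18 h. It had 2179 ± 110 in wild type against 3032 ± 446 in knockout at 18 h, and 2243 ± 83.3 and 2222 ± 58.8 at 30 h (SD, n = 3 each). The differences were 0.46 (adjusted p = 0.000252) and -0.01 (adjusted p = 0.917, 95% interval -0.20 to 0.18).

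**Figure D2:**
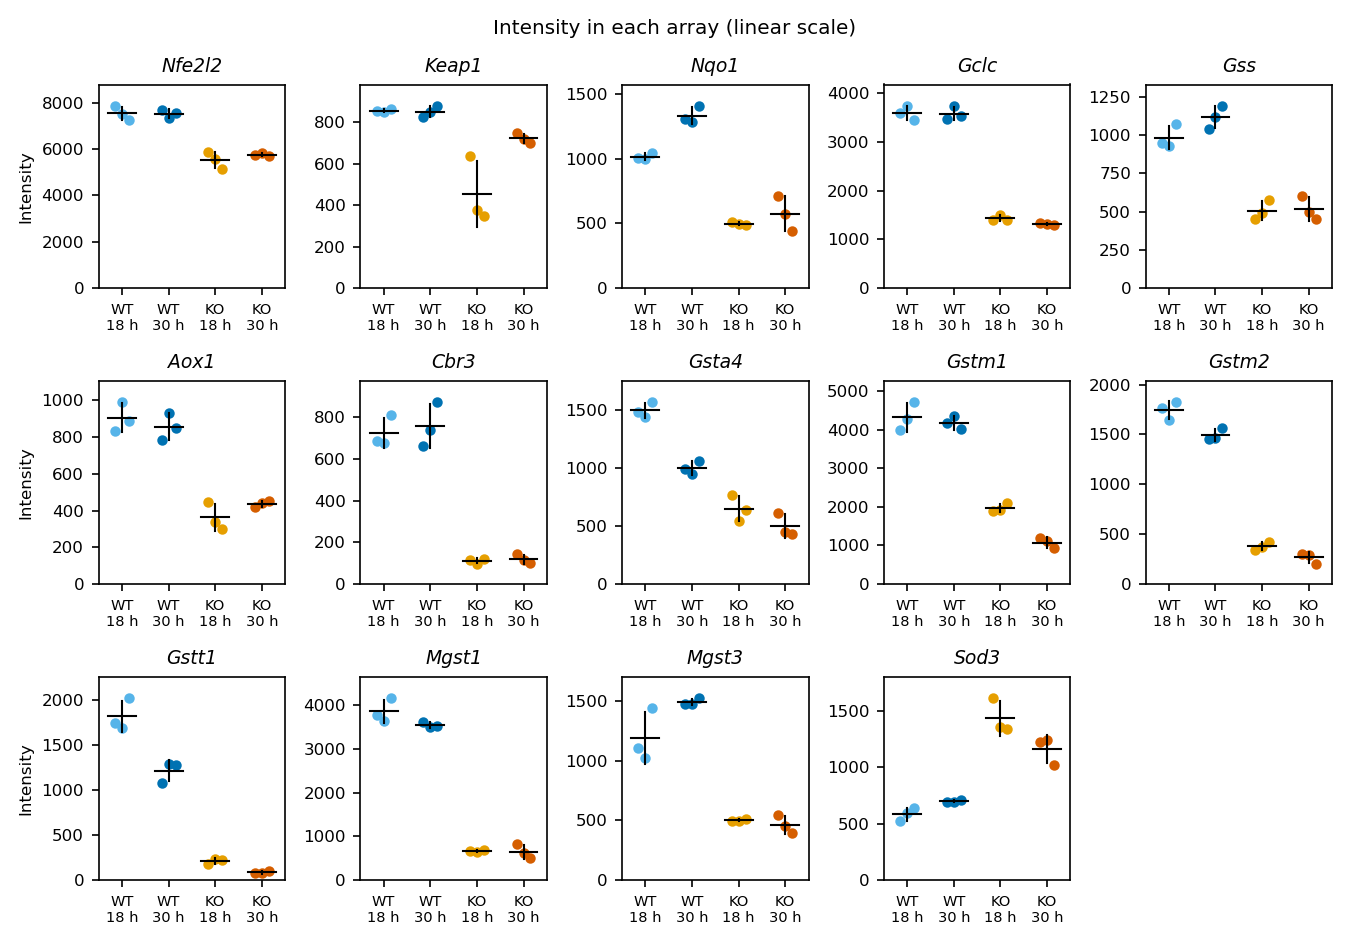
Intensity on a linear scale in each of the 12 arrays for Nfe2l2, Keap1 and the 12 genes that differed by at least 2-fold at 18 h or 30 h. Coloured points are arrays in replicate order, horizontal lines the group means and vertical lines the SD over 3 arrays. The wild-type and knockout points lie apart in each panel at both times, with Sod3 the panel in which knockout is higher.

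The glutathione transferases, which join glutathione to electrophiles, showed the largest differences, and they did not move as a whole. Of 9 genes 6 were lower and 2 higher in knockout at 18 h, where 33.8% of all tested genes were lower and 26.3% higher. At 30 h 6 were lower and 1 higher, where 28.6% and 24.3% of all tested genes were. The same 6 genes were lower at both times, Gsta4, Gstm1, Gstm2, Gstt1, Mgst1 and Mgst3, each by at least 2-fold. Gstt1, a theta class enzyme, had 1746, 1693 and 2022 in wild type against 173.0, 231.4 and 226.3 in knockout at 18 h. At 30 h it had 1081, 1291 and 1277 in wild type against 78.9, 73.8 and 104.2 in knockout. The difference was -3.03 ± 0.129 at 18 h and -3.61 ± 0.129 at 30 h (SE, adjusted p = 2.97e-12 and 3.3e-13), and at 30 h it was -3.82 with an offset of 1 and -3.10 with an offset of 64, since the knockout arrays were dim.

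The mu class genes lie in a cluster on chromosome 3 and differed among themselves. Gstm2 had 1764, 1647 and 1822 in wild type against 340.5, 375.4 and 420.5 in knockout at 18 h. The 30 h arrays gave 1450, 1463 and 1561 in wild type against 305.8, 292.6 and 200.7 in knockout, with differences of -2.16 and -2.44 (adjusted p = 1.66e-10 and 3.75e-11). Gstm1 had 3989, 4272 and 4718 in wild type against 1899, 1916 and 2096 in knockout at 18 h, and 4178, 4374 and 4015 against 1195, 1109 and 924.8 at 30 h. All knockout arrays of both genes lay below all wild-type arrays, and the difference of Gstm1 was -1.13 at 18 h and -1.95 at 30 h (adjusted p = 1.13e-08 and 9.18e-12). Gstm5 was higher in knockout at 18 h, with 974.2 ± 159 in wild type against 1257 ± 109 in knockout (SD, n = 3 each, log2 0.37, adjusted p = 0.0188). That call ended without wild-type 18 h replicate 2 (0.24, adjusted p = 0.12) or without knockout 18 h replicate 3 (0.30, adjusted p = 0.0788), and at 30 h the difference was -0.08 (adjusted p = 0.651). Probes of such closely related genes may read more than 1 of them, which the files do not resolve.

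The microsomal transferases, membrane enzymes that also reduce lipid peroxides, were both lower in knockout. Mgst1 had 3780, 3644 and 4160 in wild type against 655.6, 652.4 and 682.1 in knockout at 18 h. At 30 h it had 3620, 3500 and 3521 in wild type against 817.9, 613.4 and 502.7 in knockout. The knockout arrays lay far below the wild-type arrays at both times, by -2.51 and -2.46 (adjusted p = 1.51e-11 and 2.25e-11). Mgst3 had 1108, 1022 and 1440 in wild type against 498.2, 494.1 and 512.9 in knockout at 18 h, and 1478, 1477 and 1522 against 543.3, 453.7 and 393.8 at 30 h, differences of -1.20 and -1.66 (adjusted p = 1.88e-07 and 3.86e-09). Gsta4, an alpha class enzyme that conjugates hydroxynonenal from lipid peroxidation, had 1487, 1439 and 1567 in wild type against 765.2, 545.8 and 637.7 in knockout at 18 h. The values at 30 h were 991.0, 946.5 and 1061 in wild type against 614.8, 447.2 and 430.0 in knockout, and the genotypes did not overlap. The log2 difference was -1.20 at 18 h (adjusted p = 4.5e-07) and -1.0007 at 30 h (adjusted p = 4.8e-06), the latter just at the 2-fold limit.

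Gstp1 and Gsto1 were not lower at either time. Gstp1, the pi class enzyme, had 3597 ± 317 in wild type against 4976 ± 340 in knockout at 18 h (SD, n = 3 each, log2 0.47, adjusted p = 0.000907). At 30 h the difference was 0.23 (adjusted p = 0.0779), and it passed without knockout 30 h replicate 3 (0.33, adjusted p = 0.0175). A pair of probe sets annotated to both Gstp1 and Gstp2 gave 0.39 each at 18 h and 0.17 each at 30 h. Gsto1, the omega class enzyme, differed by 0.13 at 18 h (adjusted p = 0.273) and by 0.40 at 30 h, with 4140 ± 110 in wild type against 5536 ± 955 in knockout (SD, n = 3 each, adjusted p = 0.00179).

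Dismutases, catalase and peroxidases were called in both directions. Of 9 tested genes 4 were lower and 2 higher in knockout at 18 h, near the 33.8% and 26.3% of all tested genes, and 5 were lower and 2 higher at 30 h, where 28.6% and 24.3% of all tested genes were. Sod3, the secreted superoxide dismutase that binds the extracellular matrix, had 521.5, 591.9 and 638.4 in wild type against 1612, 1353 and 1337 in knockout at 18 h. At 30 h it had 692.6, 694.1 and 712.7 in wild type against 1222, 1246 and 1018 in knockout. Every knockout array was above every wild-type array, by 1.27 ± 0.102 and 0.71 ± 0.102 (SE, adjusted p = 1.1e-08 and 1.48e-05). Sod2, the mitochondrial dismutase, differed the other way, from 3289 ± 164 to 2147 ± 127 at 18 h and from 3388 ± 322 to 2234 ± 187 at 30 h (SD, n = 3 each, log2 -0.61 and -0.60, adjusted p = 6.44e-06 and 1.12e-05). Sod1, the cytosolic dismutase, differed by -0.17 at 18 h (adjusted p = 0.138) and -0.25 at 30 h (adjusted p = 0.0321). The call of Sod1 at 30 h ended without wild-type 30 h replicate 2 (-0.27) or 3 (-0.17), without knockout 30 h replicate 2 (-0.20) or 3 (-0.20), after medians were set equal (-0.28) and with no intensity trend (adjusted p = 0.0597).

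Catalase and most of the peroxidases were lower in knockout where they were called. Cat, which breaks down hydrogen peroxide in peroxisomes, differed by -0.28 and -0.49 (adjusted p = 0.00086 and 3.65e-06). Gpx8, a peroxidase of the endoplasmic reticulum, had 8939 ± 389 in wild type against 5869 ± 526 in knockout at 18 h, and 8263 ± 185 and 5754 ± 227 at 30 h (SD, n = 3 each), differences of -0.61 and -0.52 (adjusted p = 2.68e-07 and 2.23e-06). Gpx4, which reduces lipid peroxides and restrains ferroptosis, differed by -0.18 at 18 h (adjusted p = 0.308) and -0.53 at 30 h (adjusted p = 0.00483), and its other probe set gave -0.18 and -0.50. Prdx1, a thiol peroxidase, differed by -0.33 at 18 h (adjusted p = 0.00437) and -0.22 at 30 h (adjusted p = 0.0508), and its other probe set gave -0.38 and -0.14. At 30 h Prdx1 passed without knockout 18 h replicate 1 or 3 (-0.22, adjusted p = 0.0306 and 0.0331) or without knockout 30 h replicate 1 (-0.31, adjusted p = 0.0091), under quantile scaling (adjusted p = 0.0216), with an offset of 64 (adjusted p = 0.0483), with the filter at the 50th percentile (adjusted p = 0.0469), with robust eBayes (adjusted p = 0.0484) and in a fit on the arrays compared alone (adjusted p = 0.0417).

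Gpx1, the common cytosolic glutathione peroxidase, was higher in knockout, by 0.32 at 18 h (adjusted p = 0.0132) and 0.41 at 30 h (adjusted p = 0.00271). Its call at 18 h ended without wild-type 18 h replicate 1 (0.28, adjusted p = 0.0552) or 2 (0.25, adjusted p = 0.0715) or without knockout 18 h replicate 3 (0.27, adjusted p = 0.0565). Gpx7 was dim, with 187.1 ± 26 in wild type against 165.2 ± 14.6 in knockout at 18 h (SD, n = 3 each), and was the gene called at neither time (adjusted p = 0.309 and 0.431).

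Of the 4 genes linked to NADPH supply 2 were higher and 2 lower in knockout at 18 h, where 26.3% of all tested genes were higher and 33.8% lower. At 30 h 1 was higher and 1 lower, near the 24.3% and 28.6% of all tested genes. Tkt, transketolase, had 1814 ± 220 in wild type against 3038 ± 200 in knockout at 18 h (SD, n = 3 each, log2 0.74, adjusted p = 2.94e-06). At 30 h it differed by 0.20 (adjusted p = 0.0867), which passed with wild-type 18 h replicate 3 left out (0.20, adjusted p = 0.0489) or with knockout 30 h replicate 3 left out (0.28, adjusted p = 0.0305), under quantile scaling (0.26, adjusted p = 0.0275) and in a fit on the arrays compared alone (adjusted p = 0.0469). Taldo1, transaldolase, differed by 0.67 and 0.48 (adjusted p = 8.47e-05 and 0.00205). Both belong to the non-oxidative arm of the pentose phosphate pathway, which interconverts sugar phosphates.

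Pgd, phosphogluconate dehydrogenase, makes NADPH in the oxidative arm and had 2315 ± 318 in wild type against 1684 ± 324 in knockout at 18 h (SD, n = 3 each, log2 -0.46, adjusted p = 0.00505). The 30 h arrays gave 2670 ± 107 and 3019 ± 455 (log2 0.17, adjusted p = 0.3). Me1, cytosolic malic enzyme, another source of NADPH, had 2476 ± 41 in wild type against 1675 ± 6.49 in knockout at 18 h, and 2648 ± 40.7 and 1496 ± 12.3 at 30 h (SD, n = 3 each). Its difference of -0.56 and -0.82 was large in relation to that spread (adjusted p = 3.95e-07 and 4.19e-09), and its other probe set gave -0.61 and -0.85.

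Other genes of these systems, 90 listed and 73 tested, gave the surroundings of these values. Their counts are to be read against all tested genes, of which 26.3% were higher and 33.8% lower at 18 h and 24.3% and 28.6% at 30 h. Among 8 other transferases 6 were lower and 2 higher at each time. Gstm4 differed by -3.16 and -3.19 and Gstt3 by -3.04 and -3.01 at 18 h and 30 h, while Gsto2 was higher by 0.29 and 0.87 and Gstm7 by 0.77 and 0.23 (adjusted p of 0.0272 or less). Gstt3 had 1388 ± 124 in wild type against 154.9 ± 8.08 in knockout at 18 h (SD, n = 3 each), so it was low in knockout together with Gstt1, a gene of the same class. Knockout means of Gstm4 (58.3 and 53.7) and Gstt3 (154.9 and 131.9) were under the filter limit of 175, so both passed through wild type and the size of their differences is uncertain. Those of Mgst2 (147.7 and 166.8) and, at 18 h, of Ltc4s (164.2) were also under the limit, and both genes are among the 6 lower.

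Among 28 other genes of the NRF2 system 12 were higher and 12 lower at 18 h, and 8 were higher, near the share of all tested genes, and 15 lower at 30 h. Bach2, a repressor related to BACH1, which competes with NRF2 for the same element, had 138.2 ± 21.9 in wild type against 1758 ± 167 in knockout at 18 h (SD, n = 3 each, log2 3.53, adjusted p = 9.78e-14) and was higher by 2.83 at 30 h. Its wild-type means were under the filter limit of 175, so it passed through the knockout arrays and the size of its difference is uncertain. Nfe2l3, a relative of Nfe2l2, was higher by 2.57 at 18 h (adjusted p = 5.31e-10), and Maff, a small MAF protein, by 1.03 at 30 h (adjusted p = 1.43e-06). Both had a higher mean in knockout at the other time too. Nfe2l3 had 249.3 in wild type against 497.5 in knockout at 30 h, and Maff 217.2 against 973.9 at 18 h. Ggt5, a gamma-glutamyltransferase that acts on glutathione conjugates, had 3150 ± 351 and 203.3 ± 19.5 at 18 h (SD, n = 3 each, log2 -3.85, adjusted p = 1.8e-14) and differed by -2.65 at 30 h. Trp53inp1, a stress-response gene, differed by -1.89 and -2.41.

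Among 23 other peroxide and thiol genes 3 were higher and 12 lower at 18 h, and 2 were higher and 10 lower at 30 h. Txnrd3, a relative of thioredoxin reductase, was higher by 1.03 and 0.80, and Park7, a redox-sensitive chaperone, by 0.61 and 0.55. Msrb2, a mitochondrial methionine sulfoxide reductase, differed by -1.36 and Sesn1, a p53-regulated sestrin, by -1.28 at 18 h. Txnip, which binds and inhibits thioredoxin, differed by -3.10 and Oxr1 by -0.97 at 30 h. In the 18 h arrays Txnip had 7370, 7237 and 7331 in wild type against 3111, 7354 and 7169 in knockout, so only knockout replicate 1 was far lower. Among 14 other NADPH genes 5 were higher and 7 lower at 18 h, where 26.3% of all tested genes were higher and 33.8% lower. At 30 h 3 were higher and 3 lower, no larger a share in either direction than among all tested genes at that time. The malic enzyme gene Me2, mitochondrial, was higher by 1.75 and 1.41, opposite to Me1, and the cytosolic isocitrate dehydrogenase gene Idh1 differed by -1.69 and -1.52, with 6965 ± 292 in wild type against 2157 ± 243 in knockout at 18 h (SD, n = 3 each, adjusted p = 2.56e-12). Aldh1l2, in mitochondrial folate metabolism, was higher, with 1900 ± 59.5 in wild type against 4086 ± 179 in knockout (SD, n = 3 each, adjusted p = 3.6e-07), and Nadk2, mitochondrial NAD kinase, differed by -0.86 at 18 h. The mitochondrial isocitrate dehydrogenase gene Idh2 was higher by 0.54 and Rpia differed by -0.48 at 30 h.

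Between 18 h and 30 h few antioxidant genes changed in wild type. Of the 36 genes 2 fell and 0 rose by limma, where 1.55% of all tested genes fell and 2.41% rose. At an unadjusted p under 0.05, 6 of the 36 had higher values, as did 1382 of all 13956 tested genes. Gsta4 fell by 0.58 (adjusted p = 0.02) and Gstt1 by 0.58 (adjusted p = 0.0202). The call of Gsta4 did not hold without wild-type 18 h replicate 1 (-0.58) or 2 (-0.60), without wild-type 30 h replicate 1 (-0.57), 2 (-0.54) or 3 (-0.62), and after medians were set equal (-0.50). The call of Gstt1 ended with any wild-type 18 h array left out (-0.60, -0.63 and -0.50 for replicates 1, 2 and 3) or without wild-type 30 h replicate 1 (-0.49) or 3 (-0.61). Nqo1 had a value of 0.38 with adjusted p = 0.087, and it passed without knockout 30 h replicate 1 (adjusted p = 0.0318) or 3 (adjusted p = 0.0248) and in a fit on the wild-type arrays alone (adjusted p = 0.00843). Gsto1, at 0.27, passed without knockout 30 h replicate 1 (adjusted p = 0.0405) and in the fit on wild-type arrays alone (adjusted p = 0.0264), Gsr, at 0.19, without knockout 18 h replicate 1 (adjusted p = 0.0485), and Srxn1 and Mgst3 with wild-type 18 h replicate 3 left out (0.30 and 0.48, adjusted p = 0.0462 and 0.0214).

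In knockout 10 of the 36 genes fell and 5 rose between the times, where 18.4% of all tested genes fell and 20.9% rose. Transferases were among the genes that fell: Gstt1 by 1.16 (adjusted p = 6.04e-06), Gstm1 by 0.87 (adjusted p = 3.14e-06), Gstm2 by 0.50 (adjusted p = 0.00437), Gstm5 by 0.41 (adjusted p = 0.0162) and Gsta4 by 0.38 (adjusted p = 0.0273). Gsto1 rose by 0.55 (adjusted p = 0.000269). The value of Gstm2 was -0.32 without knockout 30 h replicate 3, and the call of Gstm5 ended without knockout 18 h replicate 3 (-0.34) or without knockout 30 h replicate 3 (-0.29). The call of Gsta4 ended without knockout 18 h replicate 1 (-0.26) or 3 (-0.39), without knockout 30 h replicate 2 (-0.31) or 3 (-0.29) and in a fit on the knockout arrays alone (adjusted p = 0.0774).

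Among the other genes in knockout, Pgd rose by 0.84 (adjusted p = 9.15e-05), Keap1 by 0.70 (adjusted p = 0.00148), Gsr by 0.35 (adjusted p = 0.00036) and Gclm by 0.27 (adjusted p = 0.0253). Without knockout 18 h replicate 1 the value of Keap1 was 0.97 (adjusted p = 1.63e-07). Txnrd1 fell by 0.43 (adjusted p = 0.00107), Tkt by 0.35 (adjusted p = 0.00651), Sod3 by 0.30 (adjusted p = 0.0268), Sqstm1 by 0.29 (adjusted p = 0.0138) and Me1 by 0.16 (adjusted p = 0.0414). The call of Gclm ended without knockout 18 h replicate 1 (0.23) or without knockout 30 h replicate 1 (0.20) or 2 (0.28) and after medians were set equal (0.25), and that of Sod3 without knockout 18 h replicate 1 (-0.21) or without knockout 30 h replicate 3 (-0.21). The call of Sqstm1 ended without knockout 18 h replicate 3 (-0.25) or without knockout 30 h replicate 2 (-0.26) or 3 (-0.22). The call of Me1 ended without any of the wild-type 30 h arrays, knockout 18 h replicates 2 or 3 or knockout 30 h arrays, 8 of the 12 arrays, at values between -0.17 and -0.15 (adjusted p of 0.0562 to 0.115), and with no filter, no intensity trend, equal medians, the replicate block or the knockout arrays alone. Conversely, Gpx1, at 0.26 with adjusted p = 0.0527, passed without wild-type 18 h replicate 2 or 3 (0.26 each), knockout 18 h replicate 3 (0.32) or without knockout 30 h replicate 3 (0.36), and with an offset of 64, the filter at the 50th percentile or robust eBayes. Without knockout 30 h replicate 3 Nqo1 (0.35) and Prdx1 (0.26) also passed, without knockout 30 h replicate 1 Gstp1 (-0.24) and Mgst1 (-0.25), and without knockout 18 h replicate 1 Aox1 (0.43).

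The difference between the genotypes in the change from 18 h to 30 h, which is the same contrast as the 30 h minus the 18 h knockout effect, was called for 9 of the 36 genes. It was lower in knockout for 7 genes and higher for 2, where 10.1% of all tested genes were lower and 10.2% higher. Gstm1 had the largest of these differences, -0.83 ± 0.127 (SE, adjusted p = 0.000523), with 4326 ± 368 and 4189 ± 180 at 18 h and 30 h in wild type and 1970 ± 109 and 1076 ± 138 in knockout (SD, n = 3 each). Tkt differed by -0.54 (adjusted p = 0.009), Sod3 by -0.56 (adjusted p = 0.0119), Sqstm1 by -0.47 (adjusted p = 0.0127) and Txnrd1 by -0.48 (adjusted p = 0.0142). These 5 calls held in every fit with 1 array left out.

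The remaining 4 calls depended on single arrays. Keap1 differed by 0.71 (adjusted p = 0.0269) and lost its call without wild-type 18 h replicate 1, wild-type 30 h replicate 1 or 2, either of knockout 18 h replicates 2 and 3 or, in knockout at 30 h, replicate 1 or 2 (0.55 to 0.72, adjusted p of 0.05 to 0.0777), while without knockout 18 h replicate 1 it was 0.98 (adjusted p = 8.15e-06). Pgd differed by 0.63 (adjusted p = 0.0227) and lost its call without wild-type 18 h replicate 1 or 3, wild-type 30 h replicate 1 or 3, knockout 18 h replicate 2 or knockout 30 h replicate 1 (0.51 to 0.61). Both also lost it after medians were set equal, at 0.62 and 0.54, which left 0 genes higher and 8 lower. The same scaling moved the split of all genes called from 50.3% to 30.1% higher, and for time in wild type from 60.9% to 81.0%. Gstt1 differed by -0.58 (adjusted p = 0.034) and lost its call without any of 8 arrays, wild-type 18 h replicate 1 or 2, wild-type 30 h replicate 2 or 3, either of knockout 18 h replicates 2 and 3 or, in knockout at 30 h, replicate 1 or 2 (-0.55 to -0.50), and with an offset of 64 (-0.31). Me1 differed by -0.26 (adjusted p = 0.0404) and lost its call in 10 of the 12 fits without 1 array, all but those without wild-type 18 h replicate 3 or knockout 18 h replicate 1 (-0.27 to -0.24), and with no filter, no intensity trend or the replicate block. Other genes passed in this way: Aox1 without knockout 18 h replicate 1 (0.51), Gstm5 without wild-type 18 h replicate 3 (-0.56), Gstp1 without knockout 30 h replicate 1 (-0.38), Gsto1 without knockout 30 h replicate 3 (0.38), and Mgst3 without wild-type 18 h replicate 3 (-0.60) or without knockout 30 h replicate 1 (-0.58). Cat passed at -0.30 after medians were set equal.

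**Figure D3:**
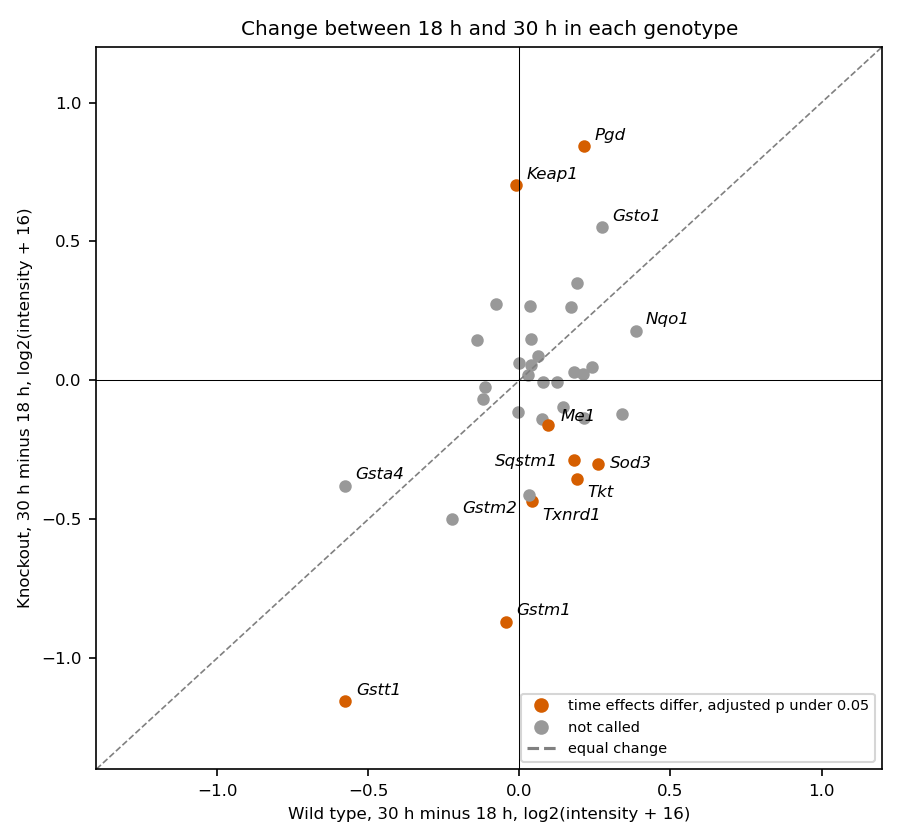
Change from 18 h to 30 h in log2(intensity + 16), wild type on the x axis and knockout on the y axis, for the 36 tested genes. Orange points are the 9 genes whose time effects differed between the genotypes, grey points the others, and the dashed line marks equal change. Keap1 and Pgd lie above the line and the other 7 below it, Gstm1 farthest at -0.04 in wild type and -0.87 in knockout.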

How the data were processed

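The members and the lists of related genes were chosen with earlier results of these data known. The values the authors deposited are linear intensity readings of each probe set, and the submitters' processing notes name Expression Console 1.1 (Affymetrix) and the algorithm PLIER 2.0. The sources used here give neither the normalization between arrays nor the genome build. The table held 35557 probe sets, of which 21789 had 1 gene symbol in the platform annotation, 1621 several and 12147 none listed, and 21698 of those with 1 symbol matched a RefSeq gene by Entrez number. Values were taken as log2(intensity + 16), so differences of dim genes are understated. Genes were represented by the probe set of highest mean, and 13956 of 19938 genes, those whose mean reached the 30th percentile (log2 7.58), were tested. A single limma fit of the 12 arrays (version 3.58.1, R 4.3.3, eBayes with an intensity trend) estimated the 4 group means. All adjusted p-values are two-sided, with Benjamini-Hochberg adjustment over all tested genes, called under 0.05. Every member could be named, and for other lists the 2 largest rises and falls at each time. The number of arrays limits the precision. The alternatives were other offsets, filters, scalings, eBayes settings, probe set means, fewer arrays, a 2-fold rule, a replicate block and each array left out. The fit was tested on simulated data.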

Additional observations from a re-analysis of the deposited data

Results flagged for a closer look

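The change from 18 h to 30 h differed between the genotypes, by limma's test of the difference itself, for 9 of the 36 genes. The value, knockout minus wild type, was 0.71 for Keap1, 0.63 for Pgd, -0.83 for Gstm1, -0.58 for Gstt1, -0.56 for Sod3, -0.54 for Tkt, -0.48 for Txnrd1, -0.47 for Sqstm1 and -0.26 for Me1 on the log2 scale. The part of knockout 18 h replicate 1, which lay between the other 18 h arrays and the 30 h arrays of knockout, was not tested for these genes beyond the fits without it.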

How the results depend on the processing

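No called value of the 36 genes changed direction under the alternatives run. With a 2-fold difference required in addition, 1 gene was higher and 10 lower in knockout than in wild type at 18 h. At 30 h 0 were higher and 10 lower. Under this rule 14.4% of all tested genes were called at 18 h and 11% at 30 h. For time 0 of the 36 genes were lower in wild type, and 0 were higher and 1 lower in knockout. The difference of the time effects kept 0 higher and 0 lower. Of all tested genes the rule kept 0.043% for time in wild type, 1.91% for time in knockout and 1.74% for that difference. For time in wild type, 2 genes were higher in a fit on the wild-type arrays alone and 1 was lower after array medians were set equal, which also left 0 higher for the difference of the time effects. With 1 array left out, the counts for time in wild type ran from 0 to 2 higher and from 0 to 2 lower, those for time in knockout from 4 to 8 higher and from 5 to 11 lower, and those for the difference of the time effects from 0 to 3 higher. The cause of these changes was not tested. Same-numbered arrays of different groups had deviations correlated at -0.456 to 0.454, and differently numbered arrays at -0.398 to 0.463. With 3 arrays a group and such like ranges, this cannot decide whether the numbers pair the samples. With the replicate number as a block the counts were 7 higher and 25 lower at 18 h and 4 and 23 at 30 h. They were 0 and 2 for time in wild type, 5 and 9 for time in knockout, and 2 and 6 for the difference of the time effects. Over all 13956 tested genes the block gave 3620 higher and 4642 lower at 18 h and 3311 and 3940 at 30 h. It gave 279 and 206 for time in wild type, 2853 and 2522 for time in knockout, and 1360 and 1365 for the difference.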
